A study of Mus musculus with 6 samples.

Results

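The cyclin-dependent kinase (CDK) inhibitors of the Cip/Kip and Ink4 families were examined in microglia with and without overexpression of PGC-1α, the transcriptional coactivator encoded by Ppargc1a. Array probes were assigned to Cdkn1a, Cdkn1b, Cdkn1c, Cdkn2a, Cdkn2b, Cdkn2c or Cdkn2d by their transcript accession, which gave 10 of the 56605 probes on the array and 7 of the 23462 genes named there. The genes were chosen by a measured value, the difference between mPGC-1α and PGC-1αf/f arrays in Cdkn1a, which was already known, together with the rest of its family. Their values are therefore described below with no p-value of their own, and counts of members past a threshold are given as a description. PGC-1αf/f mice carried a PGC-1α transgene with an eGFP reporter that stays silent until Cre recombinase acts on it. In mPGC-1α mice the same transgene was combined with Cx3cr1-Cre, a tamoxifen-inducible Cre recombinase driven from the Cx3cr1 locus, and tamoxifen was given some weeks before use. Littermates with the PGC-1αf/f alleles alone served as controls. The study describes tamoxifen treatment of both genotypes in its other experiments, and the array samples are not singled out. All mice were labelled male and 10 weeks old, and the strain background was C57BL/6 per the study's methods. Cx3cr1 is also active in other myeloid cells, so Cre is not limited to microglia by its promoter alone. Microglia were purified with magnetic beads through P2RY12, a purinergic receptor of microglia, and hybridized to 1-colour arrays (n = 3 each). Nothing in the labels says whether an array held cells of 1 animal or of several, so the spread between arrays may be partly technical.

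CDK inhibitors stop the kinases that drive a cell through division. The Cip/Kip proteins p21 (Cdkn1a), p27 (Cdkn1b) and p57 (Cdkn1c) bind complexes of CDKs with cyclins, above all those of CDK2. The Ink4 proteins p16 (Cdkn2a), p15 (Cdkn2b), p18 (Cdkn2c) and p19 (Cdkn2d) bind CDK4 and CDK6 themselves and keep D-type cyclins from activating them. Both routes leave the retinoblastoma protein bound to E2F factors, which would otherwise switch on genes of DNA replication. Cdkn2a also encodes ARF, which stabilizes p53 through MDM2. Cdkn1a is a classic target of p53 and is induced as well by stress and growth signals without it. Adult microglia at rest divide rarely.

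The arrays differed among themselves. Between 27025 and 30272 of 59305 spots were well above background, the 75th percentile of the signal ran from 1012 to 2138 intensity units, and saturated spots numbered 0. The third PGC-1αf/f array correlated less with the remaining arrays (mean r of 0.928) than they did among themselves and with it (0.962 to 0.972). On mPGC-1α replicate 3, all 4 Y-linked genes examined were not well above background, whereas they were on the other 5 arrays, which goes against its label. Xist, the transcript of the inactive X chromosome, was well above background on that array, on PGC-1αf/f replicate 2 and on mPGC-1α replicate 2. Leaving out both replicate 3 arrays was an alternative added after seeing the data. The PGC-1αf/f arrays lay in the first row of the slide and the mPGC-1α arrays in the second, so row and genotype cannot be told apart. An array of each group was present in slide columns 1 and 2. Microglial markers were bright on every array, with a mean relative log2 signal of 3.96 to 4.23 in PGC-1αf/f and 3.85 to 4.04 in mPGC-1α microglia over 10 genes. Relative log2 signal denotes log2 intensity minus the 75th percentile of the same array, and it was not compared between probes.

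Cdkn1a, encoding p21, was the member with the widest separation. Its brighter probe (A_51_P363947) gave intensities of 331, 502 and 1026 units in PGC-1αf/f microglia and 3424, 5423 and 4405 units in mPGC-1α microglia. Relative log2 signals were -1.61, -1.63 and -1.06 in the controls and 1.42, 1.70 and 1.59 in mPGC-1α microglia. Each of the 3 mPGC-1α arrays was above each of the controls, and the control closest to them was PGC-1αf/f replicate 3. The means were -1.43 ± 0.32 (SD, n = 3) and 1.57 ± 0.14 (SD, n = 3), a log2 difference of 3.00 (SE 0.19) or 8.02-fold. Within slide column 1 the log2 difference was 3.04 and within column 2 it was 3.33. Without both replicate 3 arrays it was 3.18, and it stayed between 2.65 and 3.19 over 18 alternative ways of processing. A higher value per cell and a larger share of cells holding the transcript in mPGC-1α microglia cannot be told apart in such bulk samples.

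The second Cdkn1a probe (A_55_P1986282) belongs to another transcript accession of the gene. Intensities of 44.3, 56.0 and 118.5 units were read in the controls, where it was well above background on 0 of 3 arrays, and 547, 1182 and 1299 units in mPGC-1α microglia, where it was on all 3. Relative log2 signals were -4.51, -4.79 and -4.17 in PGC-1αf/f and -1.22, -0.50 and -0.18 in mPGC-1α microglia. Here too the groups did not overlap. Since the controls give only an upper limit, the difference was at least 8.39-fold, counted from the lowest signal well above background on each control array or the probe's own signal where that was higher. This bound (3.07 on the log2 scale) belongs to the scaling used here, and with normexp and quantile the measured log2 difference was 2.75. The measured means were -4.49 ± 0.31 (SD, n = 3) and -0.63 ± 0.54 (SD, n = 3). Both probes ran in parallel over the 6 arrays, with a Pearson r of 0.991 that mostly reflects the gap between the groups.

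Of the 8 member probes that could be tested, the 2 Cdkn1a probes passed a limma adjusted p of 0.05, beside 0.0792% of the 25257 probes tested on the array (0.0713% higher and 0.00792% lower in mPGC-1α microglia). The same 2 probes were the only members whose groups did not overlap, beside 25.2% of the 22997 tested probes with a value on every array (11.4% higher and 13.7% lower). Because this comparison chose the genes, nothing is read from these counts. The count of members past the threshold fell to 0 when mPGC-1α replicate 2, mPGC-1α replicate 3 or PGC-1αf/f replicate 2 was left out and with the replicate number as a block. It fell to 1 on leaving out PGC-1αf/f replicate 1 or both replicate 3 arrays, with 1 probe per gene, and with only probes well above background on all 6 arrays.

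**Figure D1:**
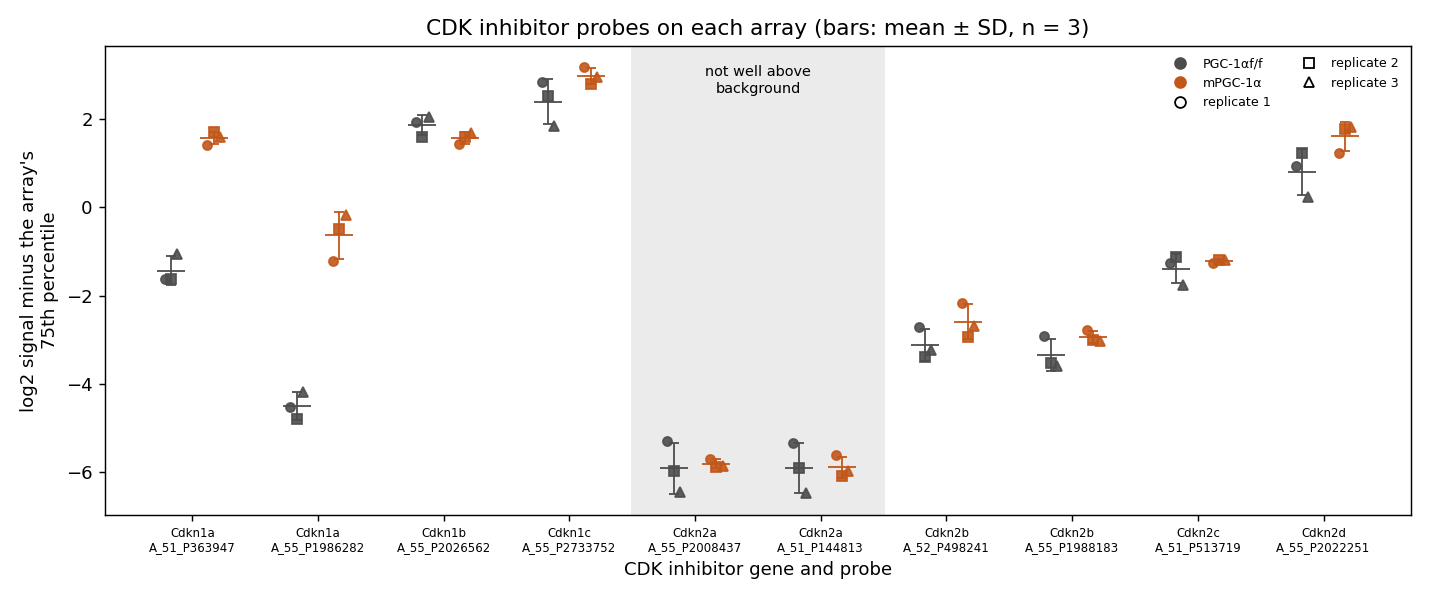
Relative log2 signal (log2 intensity minus the array's 75th percentile) of the 10 CDK inhibitor probes on each array, grey for PGC-1αf/f and orange for mPGC-1α, with marker shapes for replicates and bars for mean ± SD (n = 3). Both Cdkn1a probes are separated by group, the Cdkn2a probes in the shaded band were not well above background, and the groups of every other probe overlap.

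RefSeq places 2 transcription starts of Cdkn1a on mouse chromosome 17, in the GRCm38.p6 assembly and on the plus strand. The tables used here do not tie either start to either probe. The 250 bases before each start are shown because Cdkn1a is the member that differed, with a match to the p53 response element in capitals in the first (chr17:29090729-29090978) and GC boxes, the motif GGGCGG, in capitals in the second (chr17:29093519-29093768).
Cdkn1a, first start: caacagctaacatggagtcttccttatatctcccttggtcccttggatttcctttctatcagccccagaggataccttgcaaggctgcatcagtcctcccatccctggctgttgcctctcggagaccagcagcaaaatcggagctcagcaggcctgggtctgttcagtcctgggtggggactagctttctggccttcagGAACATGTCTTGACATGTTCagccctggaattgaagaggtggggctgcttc
Cdkn1a, second start: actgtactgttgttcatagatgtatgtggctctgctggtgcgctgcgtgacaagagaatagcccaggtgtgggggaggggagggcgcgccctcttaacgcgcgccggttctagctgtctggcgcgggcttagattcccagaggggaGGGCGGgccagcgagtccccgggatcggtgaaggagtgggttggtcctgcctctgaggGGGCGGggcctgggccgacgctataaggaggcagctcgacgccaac

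The p53 match is 20 bases long, begins 51 bases before the first start and has 1 mismatch to the consensus of 2 adjoining copies, outside the core of each copy. This search, for copies without a spacer and with at most 1 mismatch, was added after the sequence had been read. It matched 18 of 32851 promoter windows of 300 bases in the RefSeq table, or 0.0548%, and no other window of a CDK inhibitor. GGGCGG, searched on both strands, occurred 2 times around the second Cdkn1a start and not around the first. It was found in 35.7% of all windows. TATAAA (13.6% of windows), CCAAT (37.4%), CACGTG (7.15%) and TGANTCA (7.81%) were not found in either Cdkn1a window.

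Windows were listed for 6 of the 7 genes, 9 windows in all, and none was listed for Cdkn1c. Among the other members, the GC box occurred 1 time in the window of Cdkn1b, 1 time in that of Cdkn2b, 5 times in that of Cdkn2d, and 1 and 3 times in the windows of the 2 Cdkn2a starts. Cdkn2c, on chromosome 4 with 2 starts, held 4 copies at one start and 0 at the other, and the latter window contained the E-box searched for. The CCAAT motif was seen 3 times in the window of Cdkn1b and 1 time each in that of Cdkn2d, 1 window of Cdkn2a and 1 of Cdkn2c. CG dinucleotides numbered 2 in the window of the first Cdkn1a start and 23 in that of the second, compared with 8 to 45 in the windows of the other members. These matches describe letters in a window and are not evidence of a site in use.

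The other Cip/Kip genes lay close together in the groups. Cdkn1b, encoding p27, which holds cells out of division, gave relative log2 signals of 1.93, 1.60 and 2.04 in PGC-1αf/f and 1.43, 1.61 and 1.69 in mPGC-1α microglia. Its difference was -0.29 (SE 0.16), with overlapping groups, -0.50 within slide column 1 and 0.00 within column 2. Over the 18 alternatives it ran from -0.42 to -0.14.

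Cdkn1c encodes p57 and is expressed from the maternal allele in most tissues. Relative log2 signals were 2.83, 2.53 and 1.84 in PGC-1αf/f and 3.17, 2.80 and 2.95 in mPGC-1α microglia. The lowest value was that of PGC-1αf/f replicate 3, and the lowest mPGC-1α array lay just under the highest control. Its difference of 0.58 (SE 0.27) became 0.31 without both replicate 3 arrays.

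Among the Ink4 genes, Cdkn2a could not be measured. Its probes A_55_P2008437 and A_51_P144813 were well above background on 0 of 6 arrays, at 23.4 to 28.4 intensity units. No fold is given for p16 and ARF, whose transcripts share exons. Cdkn2b lies next to Cdkn2a on chromosome 4 and encodes p15, an inhibitor known for its response to TGF-β. Its brighter probe (A_52_P498241) gave -2.71, -3.39 and -3.23 in the controls and -2.15, -2.93 and -2.68 in mPGC-1α microglia. The second probe (A_55_P1988183) gave -2.92, -3.53 and -3.58 and then -2.77, -2.99 and -3.03. On both probes PGC-1αf/f replicate 1 reached into the mPGC-1α range, and the differences were 0.52 (SE 0.26) and 0.41 (SE 0.21). Over 18 alternatives the first ran from 0.31, without mPGC-1α replicate 1, to 0.72, and the second from 0.16, with normexp and quantile, to 0.63, both highest without PGC-1αf/f replicate 1.

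Cdkn2c encodes p18, which binds CDK6 above all. Relative log2 signals were -1.27, -1.12 and -1.76 in PGC-1αf/f and -1.26, -1.19 and -1.20 in mPGC-1α microglia. The mPGC-1α arrays fell between the control values, with a difference of 0.17 (SE 0.19) that turned to -0.03 without both replicate 3 arrays and was negative in 3 of 18 alternatives, normexp among them. Cdkn2d encodes p19, the Ink4 protein found in many cells that have left the cycle. Relative log2 signals were 0.94, 1.24 and 0.23 in the controls and 1.23, 1.77 and 1.83 in mPGC-1α microglia. PGC-1αf/f replicate 2 and mPGC-1α replicate 1 were nearly level, so the groups just overlapped. The difference was 0.81 (SE 0.29), and 0.41 without both replicate 3 arrays.

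**Figure D2:**
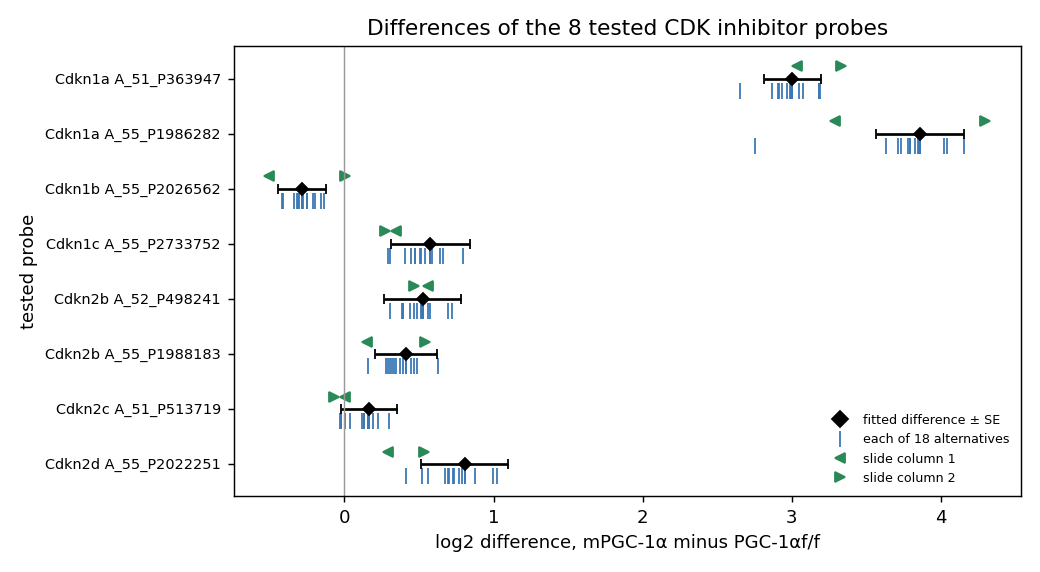
Log2 difference (mPGC-1α minus PGC-1αf/f) of the 8 tested CDK inhibitor probes, with diamonds and bars for the fitted difference ± SE, blue ticks for each of 18 alternatives and green triangles for the difference within slide columns 1 and 2. The brighter Cdkn1a probe lies at 3.00 and every other gene's probes between -0.29 and 0.81, while the 3.86 drawn for the second Cdkn1a probe is measured against controls not well above background, so that only the bound of at least 8.39-fold holds for it; the leftmost tick of the second Cdkn1a probe, at 2.75, is normexp correction with quantile normalization.

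The genes for the transgene and for the locus that carries Cre were read next. Ppargc1a gave relative log2 signals of 0.19, -0.44 and -1.21 in PGC-1αf/f and 0.57, 0.28 and 0.08 in mPGC-1α microglia, a difference of 0.80 (SE 0.35, limma adjusted p = 0.306) with overlapping groups. PGC-1αf/f replicate 3 was the lowest, and without it the difference was 0.44. The second Ppargc1a probe (A_55_P2745394) also overlapped between the groups, at 0.59 (SE 0.38, limma adjusted p = 0.4455), or 0.26 without that array. Cx3cr1, the fractalkine receptor gene, gave 4.53, 4.28 and 4.24 and then 3.85, 3.95 and 3.73, a difference of -0.51 (SE 0.14, limma adjusted p = 0.194) without overlap.

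The targets of the CDK inhibitors were examined with lists of genes around them. In all, 8 lists named 181 distinct genes, of which 151 were tested with a value on every array. At a limma adjusted p of 0.05, 1 of these rose and 0 fell, beside 0.065% of 12302 genes with 1 probe each in the rising direction and 0% in the falling one. The gene that rose, Gdf15, was well above background on 2 of 3 control arrays. With only probes well above background on all 6 arrays, 0 genes of the lists passed (limma). At an unadjusted p of 0.05, 24 of the 151 genes were higher and 5 lower. Over all 12302 genes, 8.16% were higher and 5.71% lower at this p, 54.1% had a difference above 0 and the median log2 difference was 0.03. Among the 24 higher genes, Cdk1, Ccne1, Bub1b, Psrc1, Gdf15, Cxcl2 and Timp1 were well above background on 1 or 2 of 3 control arrays. They were tested only through their mPGC-1α arrays, so their differences have no exact size and the counts of higher genes rest partly on them. The 5 lower genes were well above background on all 6 arrays.

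Of the CDKs and cyclins, 17 of 20 genes were tested and 0 passed the adjusted threshold (limma), while 4 were higher and 0 lower at an unadjusted p of 0.05. Their median log2 difference was 0.26, or 0.12 under a median shift. For the kinases that the inhibitors bind, the differences were -0.27 (SE 0.17) for Cdk2 and -0.06 (SE 0.14) for Cdk6, with overlapping groups, and -0.09 and -0.15 without both replicate 3 arrays. The sign of Cdk6 turned on leaving out 1 array. Cdk4 had a difference of 0.05 that turned negative under array weights, under a median shift, and without mPGC-1α replicate 3 or both replicate 3 arrays. D-type cyclins, the partners of CDK4 and CDK6, were less even. Ccnd2 gave 1.21, 0.80 and 0.29 in PGC-1αf/f and 1.55, 1.43 and 1.72 in mPGC-1α microglia, a difference of 0.81 (SE 0.24, limma adjusted p = 0.211). Ccnd3 gave 1.54, 1.76 and 0.72 and then 1.95, 2.11 and 2.00, a difference of 0.68 (SE 0.27, limma adjusted p = 0.281). On these brighter probes the groups of both cyclins did not overlap, PGC-1αf/f replicate 3 was lowest in each, and without both replicate 3 arrays the differences were 0.49 and 0.38. The second probe of Ccnd3 (A_55_P2918958) overlapped between the groups, with a difference of 0.46 (SE 0.36, limma adjusted p = 0.53) that was 0.02 without PGC-1αf/f replicate 3. Ccnd1 differed by 0.17. The mitotic cyclins Ccnb2, Ccnb1 and Ccna2 had differences of 1.20, 1.06 and 0.83 with overlapping groups and adjusted p-values of 0.318, 0.369 and 0.388 (limma). Without PGC-1αf/f replicate 3, these differences were 0.64, 0.47 and 0.35. The second Ccnb1 probe (A_55_P1952256), well above background on 1 of 3 control arrays, differed by 0.54, or 0.07 without that replicate. For the second Ccna2 probe (A_55_P2929773) the values were 0.825 and 0.18.

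The retinoblastoma protein and the E2F factors it holds stand one step further on. In this list, 16 of 18 genes were tested and 0 passed the adjusted threshold (limma). At an unadjusted p of 0.05, 0 were higher and 1 was lower, Lin9, a subunit of the DREAM and MuvB complexes, at -0.41, or -0.27 without both replicate 3 arrays. The median was 0.04, and its sign turned in 5 of 18 alternatives, including a median shift and normexp with quantile normalization. Rb1 differed by 0.07 (SE 0.12), a sign that turned under the same scalings. E2f8 and E2f2, E2F factors of proliferating cells, differed by 1.17 and 0.62 with overlapping groups, and by 0.40 and 0.30 without PGC-1αf/f replicate 3. Lin52, another MuvB subunit, differed by -0.43 with overlap, and by -0.67 to -0.25 on leaving out single arrays.

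Genes of S phase and mitosis are those that a block by CDK inhibitors holds down. All 23 were tested, 0 passed the adjusted threshold (limma), and at an unadjusted p of 0.05 1 was higher and 0 lower. The higher gene, Bub1b, was well above background on 1 of 3 control arrays. Differences were above 0 for 20 genes, with a median of 0.48. Mki67, a marker of dividing cells, gave -0.31, 0.48 and -1.91 in PGC-1αf/f and 0.03, 0.97 and 0.70 in mPGC-1α microglia, a difference of 1.15 (SE 0.59, limma adjusted p = 0.36), or 0.48 without PGC-1αf/f replicate 3. Ube2c, Tpx2 and Top2a, which act in mitosis, differed by 1.39, 1.25 and 1.22, none past the threshold, and by 0.61, 0.68 and 0.51 without that array. PGC-1αf/f replicate 3 stood low over the list, with a mean relative log2 signal of -1.73, whereas the other controls lay at -0.97 and -0.28 and the mPGC-1α arrays between -0.64 and -0.24. Without both replicate 3 arrays the median difference was 0.21.

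Markers of blood leukocytes were low on the same array. Over 19 tested genes of 23, their mean relative log2 signal was -1.69 on PGC-1αf/f replicate 3, 0.82 and 1.47 on the other controls and 1.30 to 1.81 on the mPGC-1α arrays. The median difference was 1.24, with 19 of 19 above 0, 0 past the adjusted threshold (limma) and 1 higher at an unadjusted p of 0.05. The 1 higher gene was Gzmb, well above background on 1 of 3 control arrays. Without PGC-1αf/f replicate 3 the median was 0.35, and without both replicate 3 arrays it was 0.25, with 17 of 19 above 0. The B cell markers Cd79a and Ms4a1 failed the filter on dim probes. Endothelial and mural markers, 7 tested of 12, were low there too, at a mean of -2.20 beside -0.49 and -0.59 on the other controls and -0.92 to -0.09 on the mPGC-1α arrays. Their differences were above 0 for 7 of 7 genes, with a median of 0.78. This median was 0.06 without PGC-1αf/f replicate 3 and -0.01 without both replicate 3 arrays, where 4 of 7 genes were below 0. Erythroid markers, 3 tested of 8, had a mean of -2.01 on PGC-1αf/f replicate 3, 1.19 and 1.15 on the other controls and 0.22 to 1.29 on the mPGC-1α arrays, and their median difference of 0.12 was -0.56 without PGC-1αf/f replicate 3. Markers of border macrophages were above 0 for 9 of 9 tested genes, with a median of 0.31 and overlapping means of 0.29 to 0.53 and 0.43 to 1.24. Without both replicate 3 arrays, 5 of the 9 were below 0 and the median was -0.01. Oligodendrocyte markers mostly ran the other way, with 8 of 10 differences below 0, a median of -0.55 and means of -0.55 to -0.26 in PGC-1αf/f and -0.95 to -0.67 in mPGC-1α microglia, without overlap. The 2 above 0 were Pdgfra, at 1.24 without overlap, and Cspg4, at 0.50 with overlap. Without both replicate 3 arrays the median of the oligodendrocyte list was -0.31, with 7 of 10 below 0. None of these lists held a gene past the adjusted threshold (0 by limma), and at an unadjusted p of 0.05 the oligodendrocyte list held 1 higher and 4 lower genes, the border macrophage list 1 higher, and the endothelial and erythroid lists 0. Of the 4 lower genes, Mog was well above background on 0 of 3 mPGC-1α arrays. Leaving out PGC-1αf/f replicate 3, the highest control for Cdkn1a, gave log2 differences of 3.19 for its brighter probe and 0.30 for Cdkn1c. Blood leukocyte genes were then still above 0 for 19 of 19, so leaving out this array does not remove the difference in those markers. The part of the cells that these marker lists stand for in the values of the CDK inhibitors, cyclins and mitotic genes was not tested.

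p53 regulators and targets other than Cdkn1a were tested for 22 of 30 genes. None passed the adjusted threshold (0 by limma, smallest adjusted p 0.0709), while 8 were higher and 0 lower at an unadjusted p of 0.05. Differences were above 0 for 15 genes, and the median was 0.24, or 0.11 under a median shift. Plk2, a kinase of the p53 response, gave -2.83, -3.44 and -3.52 in PGC-1αf/f and -1.70, -1.52 and -1.14 in mPGC-1α microglia, a difference of 1.81 (SE 0.24). Under the alternatives the adjusted p of Plk2 passed 0.05 with array weights, with the values left without normalization and with slide column as a random block. Phlda3, an inhibitor of AKT, and Gadd45a, a stress protein that binds p21, differed by 1.37 (SE 0.25, limma adjusted p = 0.106) and 1.37 (SE 0.36, limma adjusted p = 0.18), and the latter by 0.77 without both replicate 3 arrays. Phlda3 passed the threshold under 1 of 18 alternatives, array weights. Psrc1, Bbc3 and Aen differed by 1.42, 0.90 and 0.71, and Bbc3 encodes the death inducer PUMA. The Psrc1 probe was well above background on 1 of 3 control arrays, so its difference has no exact size, and it was 0.85 with the dim arrays set to their lowest signal well above background. The gene of p53 itself, Trp53, had a difference of -0.32 (SE 0.16, limma adjusted p = 0.357), or -0.50 without both replicate 3 arrays. Mdm2, which marks p53 for breakdown, stood at 0.09 on its brighter probe, a sign that turned under a median shift and normexp, and at -0.17 on another. Over the 22 genes the mean relative log2 signal ran from -0.54 to -0.39 in the controls and from -0.18 to 0.03 in mPGC-1α microglia. Such a gap was not particular to this list. Array means were also higher without overlap for the Cip/Kip regulators, the breakdown genes and the senescence genes described below, and lower without overlap for the Ink4 regulators. The promoter search for the p53 element found 0 matches among the 23 genes of the list that have a window.

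**Figure D3:**
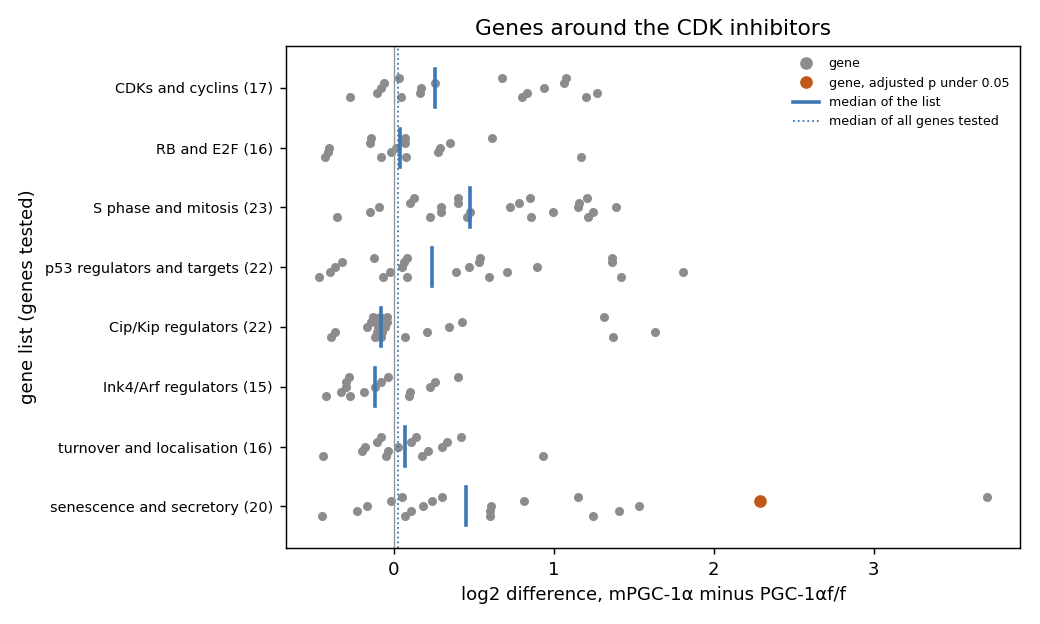
Log2 difference (mPGC-1α minus PGC-1αf/f) of each tested gene in 8 lists around the CDK inhibitors, with list medians as blue bars, the median of all 12302 genes as a dotted line and the gene past an adjusted p of 0.05 in orange. The orange point is Gdf15, drawn at 2.29, and the median for S phase and mitosis, 0.48 here, was 0.21 without both replicate 3 arrays.

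Transcription factors known to act on the Cip/Kip genes were tested for 22 of 26, with 0 past the adjusted threshold (limma) and 3 higher and 1 lower at an unadjusted p of 0.05. Their median was -0.08, or -0.02 without both replicate 3 arrays, and 15 differences lay below 0. Egr1, an immediate-early factor that can act on Cdkn1a, gave 1.81, 1.52 and 2.23 in PGC-1αf/f and 3.38, 3.15 and 3.17 in mPGC-1α microglia, a difference of 1.37 (SE 0.20, limma adjusted p = 0.0784). Klf4, a factor that works with p53 on Cdkn1a, gave 0.90, 1.61 and 0.87 and then 2.29, 2.46 and 2.58, a difference of 1.31 (SE 0.23, limma adjusted p = 0.097). Egr1 passed the threshold under 3 of 18 alternatives and Klf4 under 1. The retinoic acid receptor Rara differed by 1.63 (SE 0.55, limma adjusted p = 0.241), or 0.81 without both replicate 3 arrays, and passed the threshold under 1 of 18 alternatives, the deposited values without normalization. Foxo1, a factor that raises p27, was the 1 lower gene, at -0.37 (SE 0.14, limma adjusted p = 0.263).

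Polycomb proteins and other regulators of the Ink4 locus were tested for 15 of 20 genes, and 0 passed the adjusted threshold (limma). Taken without adjustment, 0 were higher and 1 was lower at a p of 0.05, and the median was -0.12, or -0.25 under a median shift. The lower gene was Kdm2b, a histone demethylase that represses Cdkn2b, at -0.42 (SE 0.15, limma adjusted p = 0.251). Rnf2, a Polycomb ubiquitin ligase, stood at -0.33 and Id1, a repressor of Cdkn2a, at 0.40, differences that came to -0.09 and 0.00 without both replicate 3 arrays. Genes for breakdown and localization of the inhibitors were tested for 16 of 19, with 0 past the adjusted threshold (limma), and 1 higher and 1 lower at an unadjusted p of 0.05. Their median of 0.07 turned negative under a median shift, quantile normalization and normexp. Skp2, the F-box protein that removes p27, stood at -0.08, a sign that turned under normexp and array weights. Pim1, a kinase that phosphorylates p21, differed by 0.94 (SE 0.34, limma adjusted p = 0.26), or 0.59 without both replicate 3 arrays, and Cul1, the scaffold of the Skp2 ligase, by -0.44 (SE 0.14, limma adjusted p = 0.229). The second probe of Cul1 (A_55_P2608425) overlapped between the groups, at -0.19 (SE 0.22), and stood at 0.15 without both replicate 3 arrays. Cul4b, the scaffold of another ligase, differed by 0.42 with overlapping groups, and by 0.10 to 0.77 on leaving out single arrays.

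Cells held by p21 or p16 for long can enter senescence and secrete cytokines and growth factors. Of 25 genes listed for senescence and its secretory products, 20 were tested, 1 rose and 0 fell at the adjusted threshold, and 7 were higher and 1 lower at an unadjusted p of 0.05. The 1 gene was Gdf15, a stress-induced cytokine of the TGF-β family. It gave -3.54, -3.22 and -3.59 in PGC-1αf/f and -1.50, -0.96 and -1.02 in mPGC-1α microglia, a difference of 2.29 (SE 0.19, limma adjusted p = 0.0169). The probe was well above background on 2 of 3 control arrays, and with the dim array, PGC-1αf/f replicate 1, set to its lowest signal well above background the difference was 2.16. Gdf15 was thus tested only through its mPGC-1α arrays and its difference has no exact size. The filter on all 6 arrays removes it. Without both replicate 3 arrays the difference was 2.15 and its adjusted p 0.13 (limma), and over 17 alternatives the adjusted p ran from 2.72e-05 to 0.144. The call was lost under 7 of them, which include the replicate block (adjusted p = 0.0951) and leaving out PGC-1αf/f replicate 1 or 2 or mPGC-1α replicate 2 or 3 (0.0649, 0.076, 0.144 and 0.137, all limma). The list's median of 0.45 was 0.15 without both replicate 3 arrays. The 1 lower gene was Hmga2, at -0.45, while Il6 stood at -0.23 and Lmnb1 at 0.60, both with overlapping groups. Genes of the list were not sorted by the direction each takes in senescence, so its median is not read as a rise of senescence. Cxcl2, a neutrophil-attracting chemokine, gave -5.43, -2.97 and -6.48 in PGC-1αf/f and -1.59, -2.02 and -0.14 in mPGC-1α microglia, without overlap. Its probe was well above background on 1 of 3 control arrays, so the fitted difference of 3.71 (SE 0.91, limma adjusted p = 0.163) has no exact size. It was 2.18 with the dim arrays set to their lowest signal well above background, and 2.39 without both replicate 3 arrays. Ccl2, Plaur and Igfbp3 differed by 1.41, 1.25 and 1.15, none past the threshold, and by 1.12, 0.84 and 0.75 without both replicate 3 arrays.

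The genes that followed Cdkn1a most closely were taken by Pearson r with its brighter probe over the 6 arrays, among 11564 genes well above background on all arrays. With both groups in the correlation, r mainly measures how evenly a gene separates them, and 140 genes reached 0.9 and 195 reached -0.9. The highest were Fosb (r = 0.995), Gm5129 (0.991), Aen (0.991), Bbs5 (0.989), Dusp1 (0.989), 4930526I15Rik (0.986), Wdr43 (0.986) and Utrn (0.984). Fosb, a subunit of the AP-1 factor, gave -2.02, -2.33 and -1.45 in PGC-1αf/f and 1.06, 1.81 and 1.77 in mPGC-1α microglia. Dusp1, a phosphatase of stress kinases, gave 0.60, 0.89 and 0.82 and then 2.80, 3.02 and 3.20. Fosb and Cdkn1a shared their highest control, replicate 3, and their lowest mPGC-1α array, replicate 1. At the other end stood Rab2b (r = -0.994), Borcs6 (-0.989), Rab33b (-0.981) and Pak1 (-0.981), of which Pak1, a kinase of the cytoskeleton, was lower in mPGC-1α on each array, at -1.34, -1.36 and -1.20 beside -0.73, -0.65 and -0.75.

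**Figure D4:**
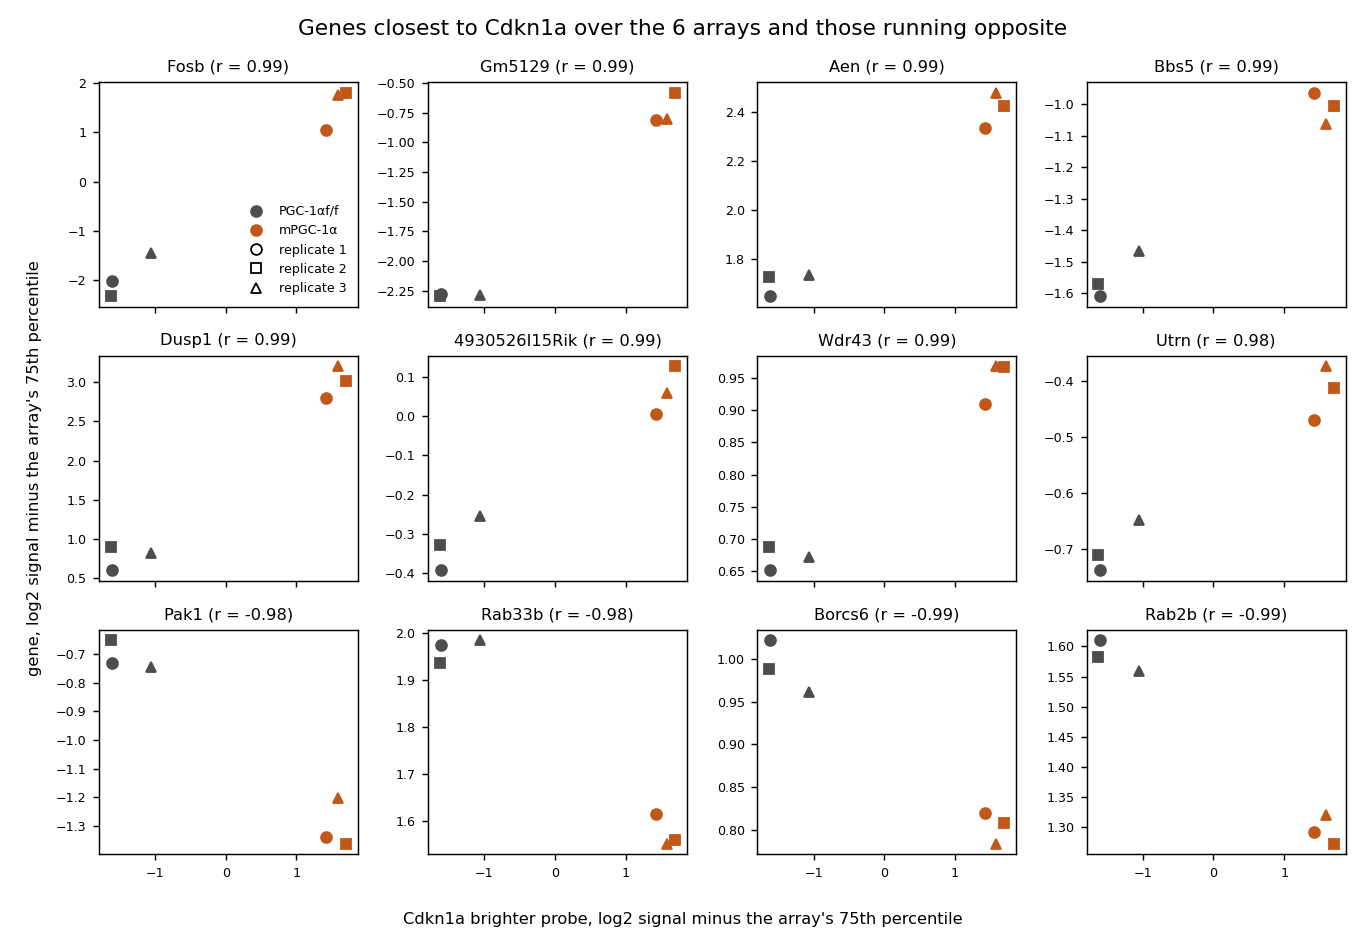
Relative log2 signal of the 8 genes with the highest and the 4 with the lowest Pearson r with Cdkn1a over the 6 arrays, against the brighter Cdkn1a probe, grey for PGC-1αf/f and orange for mPGC-1α. In each panel the points form 1 cluster per group, so r reflects the distance between the clusters.

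Immediate-early genes and genes induced during tissue dissociation were read as a further list. Of 15 such genes, 11 were tested and 2 rose at the adjusted threshold (limma), Fosb and Dusp1, beside 0.065% of all genes. Fosb lost the call under 6 of 18 alternatives and Dusp1 under 5, among them for both the replicate block (adjusted p = 0.0951 and 0.0807), leaving out mPGC-1α replicate 2 (0.144 and 0.125), mPGC-1α replicate 3 (0.137 and 0.0827) or PGC-1αf/f replicate 2 (0.0793 and 0.076), and leaving out both replicate 3 arrays (0.0677 and 0.0694, all limma). The sixth for Fosb was leaving out PGC-1αf/f replicate 1. Differences were above 0 for 10 of 11 genes, beside 54.1% of all genes, with a median of 0.91 beside 0.03. The groups did not overlap for 7 of the 11, all higher in mPGC-1α, beside 11.4% of tested probes, and those of Atf3, Egr2 and Jund, all transcription factors, overlapped, as did those of the heat shock gene Dnajb1, at -0.15. The mean relative log2 signal of the list was -0.20 to 0.04 in PGC-1αf/f and 0.97 to 1.09 in mPGC-1α microglia, without overlap. Ier3, Ier2 and Hspa1a, 3 other early or heat shock genes, differed by 1.64, 1.49 and 1.36, with adjusted p-values of 0.0728, 0.09 and 0.074 (limma), and the Hspa1a probe was well above background on 2 of 3 control arrays. The part of handling or of these genes in the Cdkn1a difference was not tested.

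**Figure D5:**
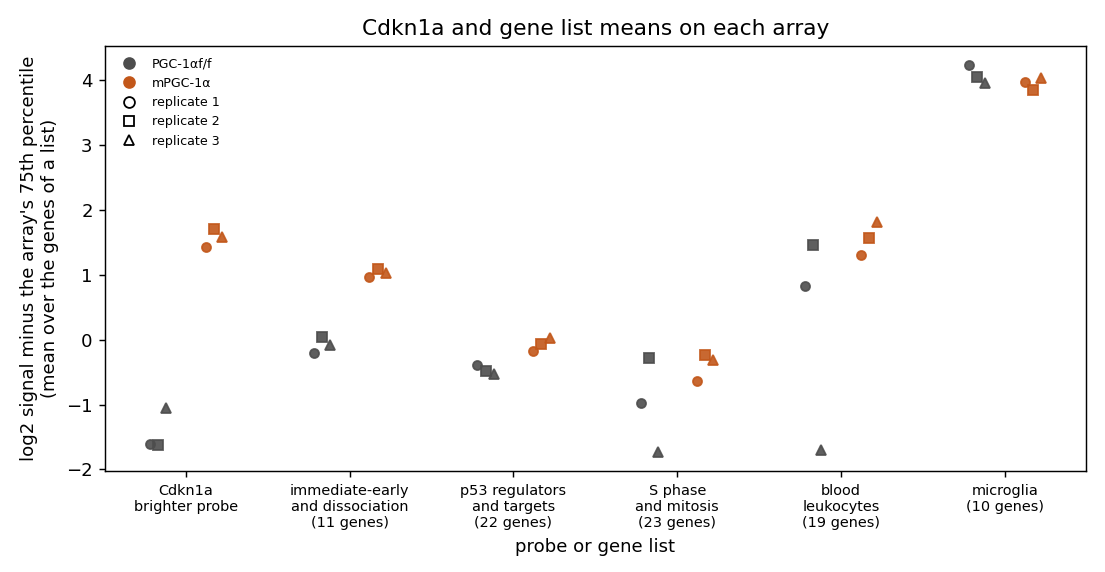
Relative log2 signal of the brighter Cdkn1a probe and mean relative log2 signal of 5 gene lists on each array, grey for PGC-1αf/f and orange for mPGC-1α, with marker shapes for replicates. The groups do not overlap for Cdkn1a, the immediate-early and the p53 list, whereas PGC-1αf/f replicate 3 stands low in the S phase and mitosis and the blood leukocyte lists.

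The nearest protein-coding genes on either side of each member were read for 2 places in both directions. Beside Cdkn1a, Srsf3, a splicing factor, differed by 0.11 (SE 0.13) and Cpne5 by 0.13 (SE 0.17), or 0.03 and 0.19 without both replicate 3 arrays, while Stk38 and Rab44 had no tested probe with a value on every array. Next to Cdkn1c, in the same imprinted region, Slc22a18 gave -0.84, -1.22 and -1.55 in PGC-1αf/f and -0.27, -0.36 and -0.40 in mPGC-1α microglia, a difference of 0.86 (SE 0.20, limma adjusted p = 0.145) without overlap. Mtap, beside Cdkn2a, differed by -0.05 (SE 0.14), or -0.13 without both replicate 3 arrays. Around Cdkn2d, Atg4d and Kri1 stood at 0.18 and 0.17 and Slc44a2 at -0.22, and around Cdkn2c, Rnf11 stood at -0.37 and Faf1 at 0.17. The neighbours of Cdkn1b, Gpr19 and Ddx47, had differences of 0.23 and -0.14, and the latter was 0.03 without both replicate 3 arrays. All adjusted p-values of these neighbours were above the threshold of 0.05 (limma).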

How the data were processed

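Microglial RNA of 6 samples was amplified, labelled with Cy5 and hybridized to 1-colour Agilent arrays by the authors. The deposited scanner files give intensity per spot from Feature Extraction, after background subtraction and spatial detrending, with flags. For normalization the study's methods name GeneSpring, and no test per gene is given. The deposited series table holds the same intensity without normalization between arrays.

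Control and outlier spots were left out. From log2 intensity the 75th percentile of the array was subtracted, and spots of a probe were averaged. A probe was well above background where at least 0.5 of its spots were, and was tested where this held on all arrays of 1 group. Genes were named from RefSeq (GRCm38.p6), which gave 1 symbol to 33767 probes. A gene was represented by its brightest tested probe with values on 6 arrays. Genotypes were compared with limma 3.58.1 (lmFit, eBayes, two-sided, Benjamini-Hochberg over all tested probes) in R 4.3.3 with the package data.table (version 1.17.8), a procedure tested on simulated data. Figures used Python 3.11.15, matplotlib 3.10.9, pandas 2.3.3 and numpy 2.4.6. The number of arrays limits the precision.

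The members and lists were chosen with earlier results of these data known. Named were all member probes, Ppargc1a, Cx3cr1, 11 core cycle and p53 genes, list genes past the threshold and up to 3 per list with the largest difference among those well above background on 6 arrays, the genes most and least correlated with Cdkn1a, and neighbours. Lin9, Cxcl2, Psrc1, Bbc3, Foxo1, Ier3, Ier2, Hspa1a, Atf3, Egr2, Jund and Dnajb1 were named after their values were seen. The alternatives comprised a median shift, quantile normalization, normexp with an offset of 50, the deposited values as they stand, other filters, array weights, eBayes with trend and robust, 1 probe per gene, the replicate block, slide column as a random block, leaving out each array and leaving out both replicate 3 arrays. Dim control arrays were also set to their lowest signal well above background, a choice made after seeing the data.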

Additional observations from a re-analysis of the deposited data

How the results depend on the processing

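With 3 arrays per group, 20 probes passed the limma threshold over the whole array, and this count moved with the settings. It was 754 with array weights, 456 with the deposited table without normalization, 138 with slide column as a random block, 11 with a median shift, 11 with normexp and quantile, 11 with quantile normalization, 9 with no filter on dim probes, 7 with genes in place of probes, 4 with only probes well above background on all 6 arrays, 3 without both arrays that stand apart and 0 with the replicate block, and it ran from 0 to 25 with 1 array left out at a time. CDK inhibitor probes past the threshold were 2, and 1 with genes in place of probes, 1 with the filter on all 6 arrays, 1 without both arrays that stand apart and 0 with the replicate block, with a range of 0 to 2 on leaving out single arrays. Genes of the pathway lists past it were 1, and 7 with array weights, 5 with the deposited table, 3 with slide column as a random block and 0 with no filter, the filter on all 6 arrays, the replicate block or without both arrays that stand apart, with a range of 0 to 2 on leaving out single arrays. At an unadjusted p of 0.05, 4226 probes passed in limma as reported and 4697 with the replicate block. Replicate numbers were not taken as pairs in the main fit, and the correlations of same-numbered deviations were 0.139, 0.127 and 0.0187. Replicates 1 and 2 of both groups shared slide columns 1 and 2, and slide column as a random block gave a correlation of 0.349. Both replicate 2 arrays, unlike both replicate 1 arrays, had Xist well above background. Whether same-numbered arrays belong together was therefore not settled. The log2 difference of the brighter Cdkn1a probe was 2.65 with normexp and quantile. A median shift lowered every log2 difference by the same amount, -0.133. Signs turned for Cdk4 (-0.026 with array weights, -0.086 with a median shift, -0.056 without both arrays that stand apart, -0.067 to 0.12 on leaving out single arrays), Cdk6 (-0.12 to 0.041 on leaving out single arrays), Id1 (-0.0030 without both arrays that stand apart), Mdm2 (-0.047 with a median shift, -0.0063 with normexp and quantile, -0.018 to 0.22 on leaving out single arrays), Rb1 (-0.057 with a median shift, -0.041 with normexp and quantile) and Skp2 (0.035 with array weights, 0.027 with normexp and quantile). For the remaining moves the cause was not tested, beyond the smaller number of arrays or probes where a setting removes them. Cdkn2a and the controls of the second Cdkn1a probe were limited by signal near background.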
